A study of Danio rerio with 2 samples.

Results

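The accessible sites described here lie in the outermost 500 kb of zebrafish chromosomes. They were taken from the ATAC-seq peak list of the 4 hpf embryo by position alone: a peak belonged to a chromosome end when its summit lay within 500 kb of position 0, or within 500 kb of the end of the last peak of that chromosome. Chromosome 4 was left out, so 24 chromosomes gave 48 ends, which are called starts (low coordinates) and ends (high coordinates). This rule found 3634 peaks, 1877 in starts and 1757 in ends, of 77524 peaks on the 24 chromosomes and 84715 in the whole list. The remaining 73890 peaks of the same 24 chromosomes are called the rest, and each chromosome was compared with its own rest.

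The embryos were wild type, labelled Tubingen (the study's methods name Wik as a second wild-type strain, without saying which experiments used it), untreated and collected at 4 hpf, just after the start of zygotic genome activation, with about 300 embryos per tube. ATAC-seq uses the Tn5 transposase, which cuts and tags DNA that is not wrapped tightly in nucleosomes, and short fragments mark places where DNA lies free between nucleosomes. The 2 biological replicates were pooled by the authors in 1 list of peaks on Zv10, so a peak has no value per replicate, no spread between replicates can be given, and no test across samples was possible. The lowest, the median and the highest chromosome or end are given in place of a replicate error, and chromosomes of 1 pooled list are not replicates. Each peak carries a position, a summit and a score, which is the authors' value with an unnamed scale, and depth per replicate is unknown. Whole embryos were used, so the cell types behind a peak cannot be told apart.

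Chromosome ends are a distinct setting in the vertebrate genome. The tip itself is made of telomere repeats that protect it, and the stretch next to it, the subtelomere, often holds duplicated sequence that differs in copy number between individuals and is hard to assemble. In zebrafish, crossing over in male meiosis is concentrated near the chromosome ends. At the stage sampled here the embryo begins to transcribe its own genome, and the maternal factors Pou5f3, Nanog and Sox19b open chromatin at early enhancers and promoters. No Zv10 sequence or gene annotation was used, so the sites are given by position, and which of them are promoters or carry telomere repeats was not tested.

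Accessible sites were dense in the outer 500 kb. Over the 24 chromosomes the outer part held a median of 157.5 summits per Mb against 59.5 in the rest. The ratio had a median of 2.59 over the 24 chromosomes, with an interval of 1.98 to 3.07 for that median. This interval takes chromosomes as independent draws, although they share 1 pooled list, and it is not a replicate error. Chromosome 7 had the lowest ratio, 1.27, and chromosome 10 the highest, 4.43, and the outer part was denser in 24 of 24 chromosomes. Summed over chromosomes, 1.90% of the length held 4.69% of the peaks. Peaks covered 17.8% of the outer length in the median chromosome and 5.80% of the rest, so the covered share differed by more than the number of sites, with a median ratio of 3.14. This ratio ran from 1.42 on chromosome 23 to 5.70 on chromosome 10.

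The limit of 500 kb did not fall on a visible edge. In the step from 450 to 500 kb the 48 ends together held 93.8 summits per Mb, and in the step from 500 to 550 kb they held 105. The last peak inside the limit lay on chromosome 3 at 499.825 kb from the tip with a score of 37, and the first outside it on chromosome 5 at 500.075 kb with a score of 1801. Members are therefore the outer part of a gradient, and not a separate block.

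The 48 ends differed widely among themselves. An end held between 9 and 123 summits, with a median of 79.5, whereas the 2466 complete windows of 500 kb in the rest held a median of 27, with a 5th percentile of 9, a 95th percentile of 59 and a maximum of 103. Of the 48 ends, 34 (70.8%) held more than 59 summits, against 4.91% of the interior windows. Those 34 were 17 starts and 17 ends. The median end was matched or passed by 20 interior windows, or 0.811%, and 7 ends held more summits than any interior window. The densest interior window lay on chromosome 18 from 32500001 to 33000000. Both ends of 12 chromosomes lay above 59 summits, and neither end of 2 chromosomes did. This limit pools the windows of all chromosomes, whose own 95th percentiles ran from 39.6 on chromosome 10 to 75.15 on chromosome 18. The 34 ends were not recounted by these. The end of chromosome 9, with 63 summits, lay below its own 70, and the end of chromosome 8, with 53, lay above its own 46.

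**Figure D1:**
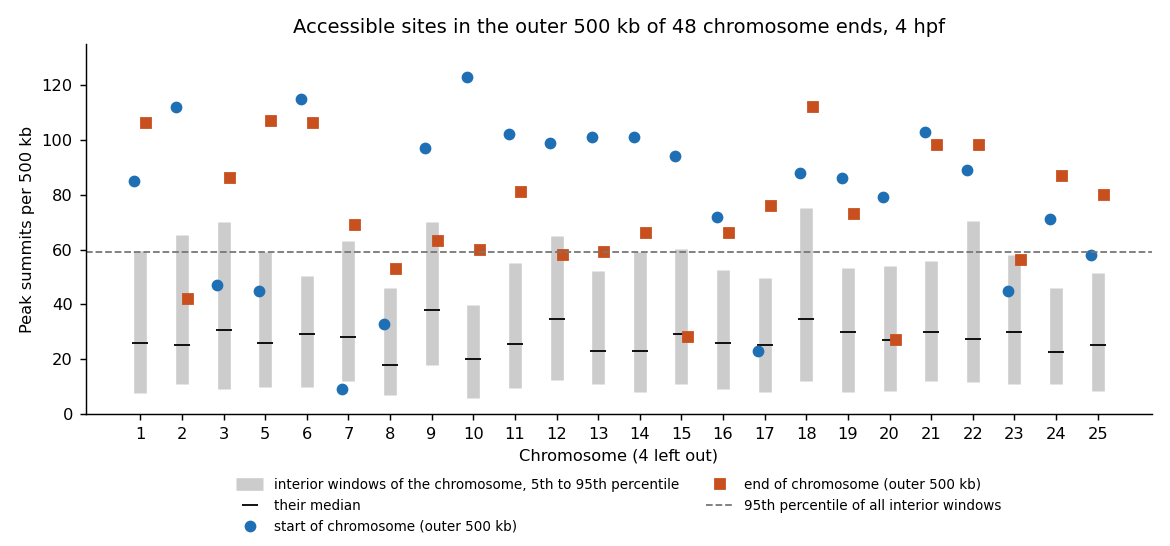
Peak summits in the outer 500 kb of each chromosome (y axis, summits per 500 kb; x axis, chromosome), with starts as circles and ends as squares. Grey bars span the 5th to 95th percentile of the interior 500 kb windows of the same chromosome and black marks their median, and 34 of the 48 ends lie above the dashed line at 59 summits while the start of chromosome 7 lies at 9.

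The densest end was the start of chromosome 10, with 123 summits, or 246 per Mb, which was 5.96 times the density in the rest of that chromosome. Its peaks had a median width of 1090 bp and covered 33.2% of the 500 kb. The next 4 were the start of chromosome 6 with 115 summits, the start of chromosome 2 and the end of chromosome 18 with 112 each, and the end of chromosome 5 with 107. The end of chromosome 18 had the highest covered share of all 48 ends, 34.3%, with a median distance of 2820 bp from one summit to the next. On chromosome 6 both ends were dense, with 106 summits in the end, whereas on chromosomes 2 and 5 the opposite ends held only 42 and 45.

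The 5 sparsest ends lay on different chromosomes, so the other end of each was denser by this choice. The start of chromosome 7 held 9 summits, the 5th percentile of the interior windows, of which 3.93% held fewer, while its end held 69. The start of chromosome 17 held 23 summits and its end 76. On chromosome 20 the end held 27 summits and the start 79, and on chromosome 15 the end held 28 and the start 94. The start of chromosome 8, the fifth of the sparsest, held 33 summits, above the median of 27 of the interior windows, and its end 53. The starts of chromosomes 7 and 17 and the ends of chromosomes 15 and 20 were the only 4 of the 48 ends below the density of their own chromosome's rest. On chromosomes 8 and 23 neither end passed 59 summits, the 95th percentile of all interior windows together. The end of chromosome 8, with 53, did pass the 95th percentile of its own chromosome's windows, 46, and the start, with 33, did not. On chromosome 23 that percentile was 58, and the start and the end held 45 and 56 summits.

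Starts and ends overlapped widely in density. Starts had a median of 174 summits per Mb, from 18 to 246, and ends a median of 142, from 54 to 224. The start was denser in 13 chromosomes and the end in 11. The difference within a chromosome had a median size of 29 summits and reached 70 on chromosome 2, where the start was higher, and 62 on chromosome 5, where the end was higher. The range of the ends lay inside that of the starts. Single chromosomes had a standard deviation of 61.3 for starts and 47.9 for ends, which does not measure the uncertainty of the difference. Gaps under 1 kb made up 33.9% of pairs in starts and 28.4% in ends. Peaks covered a mean of 19.8% of starts and 17.1% of ends. Tips of the 2 kinds were not set in the same way. The tip of a start was position 0, and its nearest summit lay a median of 2780 bp and up to 47895 bp away, on chromosome 25. The tip of an end was the last peak itself, so its nearest summit could not be far, and lay at most 5695 bp away.

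Within the outer 500 kb the density fell with distance from the tip. All 48 ends together held 205 summits per Mb in the first 50 kb, 160 from 200 to 250 kb and 93.8 from 450 to 500 kb. Single ends held from 1 to 20 summits in the first 50 kb, with a median of 10, and from 0 to 12 in the last, with a median of 4. The outer 250 kb held 181 summits per Mb and the inner 250 kb held 121, and the outer 250 kb held more in 20 of 24 chromosomes. Counted end by end, 35 held more summits in the outer 250 kb, 11 fewer and 2 equal numbers. Starts reached their highest value, 212 per Mb, from 50 to 100 kb, and stayed at or above 177 up to 250 kb. Ends were highest in the first step, at 203 per Mb, which includes the 24 last peaks that set the tips, and were at 144 from 200 to 250 kb.

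Past the limit the density fell further, but not at every step. From 500 kb to 1 Mb the density was 77.5 summits per Mb, and from 1 to 1.5 Mb it was 59.6, as in the rest as a whole. Between 3.5 and 4 Mb it reached 43.3, the lowest of the 10 steps of 500 kb out to 5 Mb. Between 500 kb and 1 Mb from a tip, single ends held from 6 to 102 summits, with a median of 33, against the median of 27 over all interior windows.

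**Figure D2:**
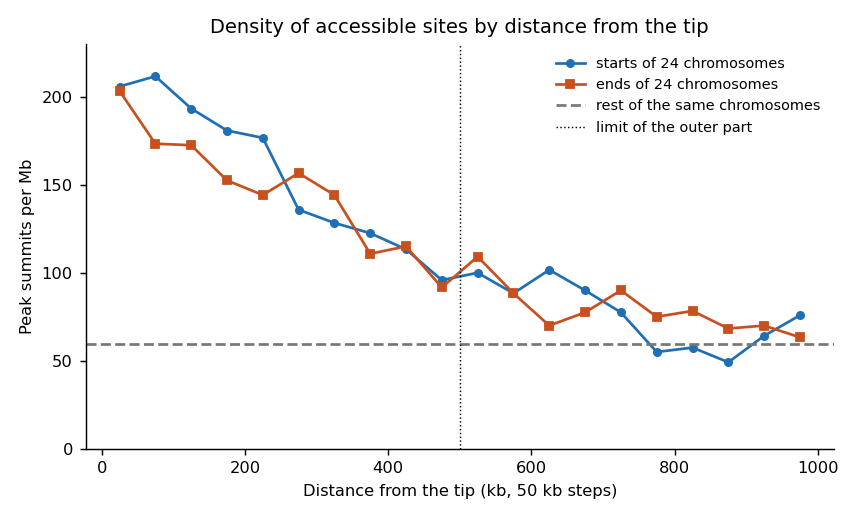
Peak summits per Mb (y axis) by distance from the tip in 50 kb steps (x axis, kb), summed over 24 starts (circles) and 24 ends (squares). Both lines lie above 200 per Mb in the first step and near 95 at the dotted limit of 500 kb, and approach the dashed line at 59.6, the density in the rest, between 700 kb and 1 Mb.

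Some ends did not follow this order. The end of chromosome 1 held 35 summits in its outer and 71 in its inner 250 kb, and the end of chromosome 6 held 36 and 70. The end of chromosome 19 held 25 and 48, and the start of chromosome 24 held 25 and 46. In the starts of chromosomes 5 and 8 the outer 250 kb held only 9 summits each, against 36 and 24 in the inner 250 kb, and the first summit lay 39915 and 33015 bp from position 0. The opposite pattern was steepest in the end of chromosome 8, where 47 of 53 summits lay in the outer 250 kb. The median member lay 204 kb from its tip, and the median per end ran from 90.9 kb in the end of chromosome 8 to 398 kb in the end of chromosome 15.

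Sites in the outer part lay closer together, which is largely their higher density in another form. The mean distance from one summit to the next, close to the inverse of density, was 6.46 kb against 16.8 kb in the rest. The distance from one summit to the next had a median of 3.50 kb over 3586 adjacent pairs, against 7.49 kb over 73866 pairs in the rest. Chromosome by chromosome the median distance was shorter in the outer part in 24 of 24, with a median ratio of 0.456, from 0.312 on chromosome 24 to 0.740 on chromosome 23. Gaps under 1 kb made up 31.3% of outer pairs and 15.7% of pairs in the rest, and gaps under 10 kb 87.2% and 60.4%. In the first 100 kb from the tip 41.8% of gaps were under 1 kb and the median distance was 2.95 kb, while from 400 to 500 kb these values were 20.0% and 4.60 kb.

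**Figure D3:**
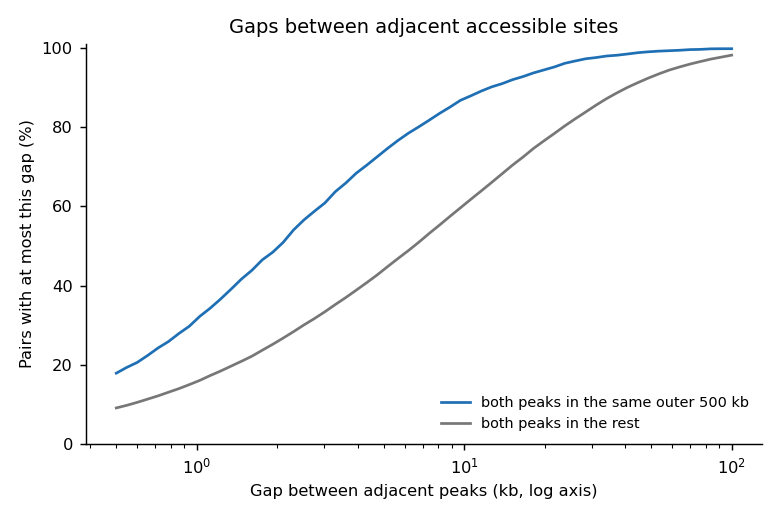
Share of adjacent pairs (y axis, percent) with at most a given gap between them (x axis, kb, log axis), for pairs inside the same outer 500 kb and pairs in the rest of the 24 chromosomes. The outer line lies above the other over the whole range drawn, with 87.2% against 60.4% of gaps under 10 kb.

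Summits were also counted in bins of 10 kb. The outer part held a mean of 1.51 summits per bin and the rest 0.596. The variance over the mean was 1.32 and 1.37. This measure also depends on density and on the room that peaks take up, which differ between the parts. It therefore does not decide whether summits were more clustered in either part. The median spacing was 0.542 of the mean spacing in the outer part and 0.447 in the rest. Empty bins made up 31.1% of the outer part and 60.8% of the rest, and bins with 3 or more summits 24.7% and 4.63%.

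Long runs of neighbouring sites were common at the ends. A higher density by itself lengthens such runs, and whether they go beyond it was not tested. When peaks with gaps of at most 10 kb were joined, 70.6% of members, 2565 in number, lay in runs of 10 or more peaks, against 18.6% of peaks in the rest. Such runs with members numbered 107 of 967. Of the 10 runs with the most peaks on the 24 chromosomes, 5 held members. Among runs with members, the one richest in peaks was found on chromosome 10 from 51 to 257580, with 83 peaks in 258 kb, of which 48.2% was covered. The next 2 among them held 71 peaks each, as many as the largest run wholly in the rest, on chromosome 1 from 58387331 to 58624130, 248 kb away from the tip, and on chromosome 2 from 1 to 232360. On chromosome 18 a run of 66 peaks reached the tip, from 50789241 to 51008030, and 55.7% of it was covered. The fifth among runs with members, on chromosome 14 from 115141 to 304740, held 64 peaks with a median score of 275 and had the highest covered share of the 5, 59.1%.

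Long gaps between neighbouring peaks were rarer but not absent. A gap was counted only between 2 peaks of the same end, or of the rest. Gaps across the limit of 500 kb, and stretches before the first peak, are thus left out. This weighs more on the ends, which are short. Gaps of at least 50 kb took up 11.3% of the outer length, 35 gaps in 25 of the 48 ends, and 38.2% of the rest. Gaps of at least 100 kb took up 15.8% of the rest and 3.71% of the outer length, where they numbered 7 in 6 ends. The longest, 150.8 kb, lay in the end of chromosome 12 from 48734411 to 48885190, and the next, 149 kb, in the sparse start of chromosome 7 from 212891 to 362200. The others lay in the ends of chromosomes 15 (143 kb), 20 (115 kb) and 8 (105 kb), and 2 in the start of chromosome 8 (122 and 106 kb). Assembly gaps were not looked up, and their part in these stretches was not tested.

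Members were wider than other peaks. Their median width was 860 bp, with the middle 50% between 630 and 1360 bp, against 730 bp with 580 to 1020 bp in the rest. Per chromosome the ratio of the medians had a median of 1.20, and members were wider in 22 of 24 chromosomes. Chromosome 3 went the other way, with 740 against 750 bp, and chromosome 16 had 730 bp in both. The largest ratio, 1.35, was found on chromosome 18, with 975 against 720 bp. Width fell with distance from the tip. The median was 970 bp in the first 50 kb and 780 bp from 450 to 500 kb, and peaks were wider in the outer than in the inner 250 kb in 21 of 24 chromosomes. In starts the steps of the first 250 kb had medians of 950 to 1085 bp, against 820 to 935 bp in the same steps of ends. Over all 500 kb the medians were 890 bp in starts and 840 bp in ends.

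Scores were higher in the outer part by a smaller margin. Members had a median score of 145, with the middle 50% between 89 and 324, against 128 with 77 to 271 in the rest. The ratio of the medians per chromosome had a median of 1.16 with an interval of 1.00 to 1.21, and was above 1 in 17 chromosomes, below 1 in 4 and equal to 1 in 3. Chromosome 14 had the highest ratio, 1.32, with a median score of 164 against 124, and chromosome 3 the lowest, 0.862, with 119 against 138. By distance, the median score was 163 in each of the first 2 steps of 50 kb and 136 in the last, over starts and ends together. In starts it was 161 in the first step and 103 in the last. In ends it was 163.5 in the first step, 122 from 300 to 350 kb and 174 in the last, the highest of the 10 steps. Scores were higher in the outer than in the inner 250 kb in 18 of 24 chromosomes. Scores of at least 1000 were reached by 244 members, or 6.71%, against 5.18% in the rest.

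**Figure D4:**
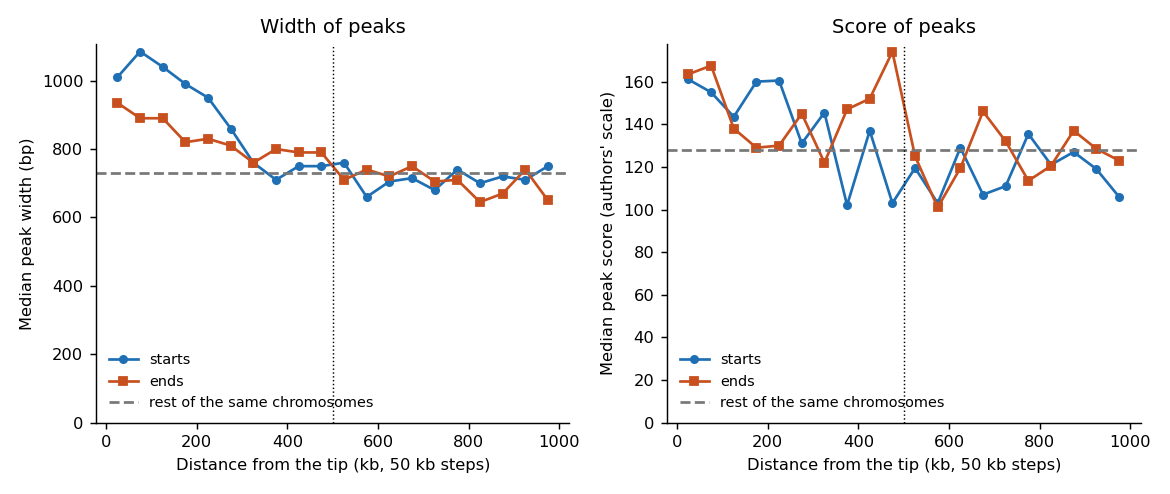
Median peak width (left, bp) and median peak score (right, the authors' scale) by distance from the tip in 50 kb steps, for starts (circles) and ends (squares), with the median of the rest dashed at 730 bp and at 128. Width starts near 1000 bp in starts and nears the dashed line beyond 300 kb, whereas scores of starts go from 161 to 103 within the outer 500 kb and those of ends fall to 122 at 300 to 350 kb and rise to 174 in the last step.

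Peaks of every score and width class were denser in the outer part, and the wide ones the most. Peaks scoring under 50 were 1.67 times as dense as in the rest, those scoring from 100 up to 200 were 2.79 times as dense and those scoring at least 1000 were 3.29 times as dense. Across width classes the ratio ran further, from 1.80 for peaks under 0.6 kb to 3.50 for those of 1 kb up to 2 kb, 5.30 for 2 kb up to 3 kb and 5.03 for 3 kb or more. The narrowest class was denser in the outer part in 22 of 24 chromosomes and the widest in 20 of 24. Ends with more summits also had wider peaks across the 48 ends, with a Spearman's rho of 0.630 between the number of summits and the median width, while the number of summits and the median score had a rho of 0.0397. The points of these correlations share 1 peak list and its calling, in which neighbouring sites may be joined as 1 wide peak, and the part of such joining was not tested.

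**Figure D5:**
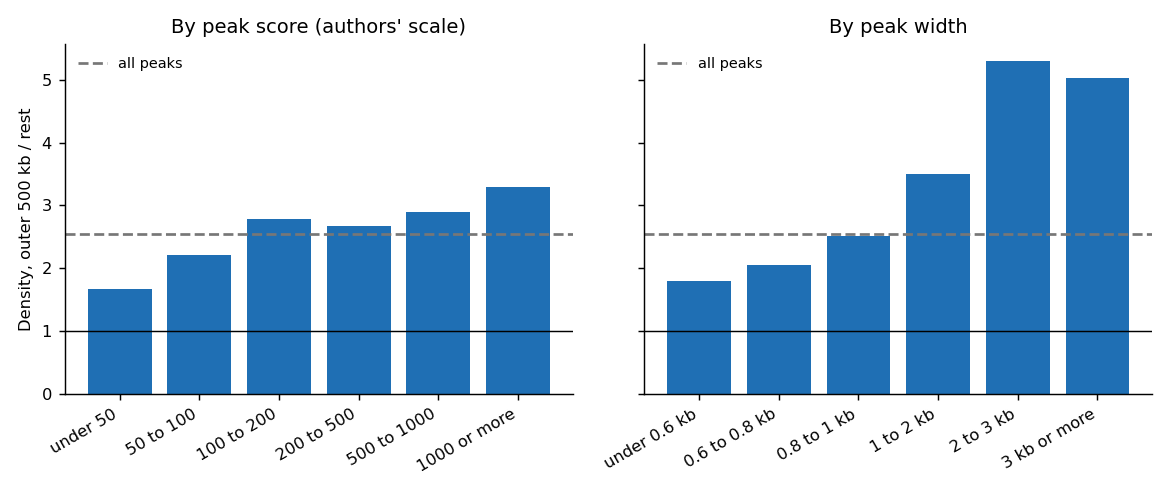
Density in the outer 500 kb divided by density in the rest (y axis), summed over 24 chromosomes, for classes of peak score (left, the authors' scale) and peak width (right), each class without its upper bound, with the ratio of all peaks, 2.54, dashed and 1 marked by a line. The bars rise from 1.67 to 3.29 with score and from 1.80 to 5.30 and 5.03 with width.

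The wide members were also high in score. The 186 members of at least 3 kb had a median score of 757.5, with the middle 50% between 348 and 1292, while the 1911 peaks of that width in the rest had a median of 210, with 150 to 1023. A score of at least 500 was reached by 63.4% of the wide members and by 32.9% of the wide peaks in the rest. The wide members had the higher median score in 21 of the 23 chromosomes that had any. Peaks of 1 kb up to 2 kb did not follow this order, with a median of 170 in the outer part and 205 in the rest. Nor did those of 0.8 kb up to 1 kb, with 131 and 140. Wide members had a density of 7.75 per Mb, against 1.54 for such peaks in the rest. They lay in 39 of the 48 ends, and the interior windows that held such peaks were not counted. The starts of chromosomes 9 and 14 and the end of chromosome 18 held 11 each. Their share fell from 7.66% of members in the first 100 kb to 3.21% from 400 to 500 kb. The widest peak of the rest, at 97.0 kb, was wider than any member. The widest member, 24.9 kb, lay in the end of chromosome 21 from 45407531 to 45432390 with a score of 620, next to the fourth widest, of 13.9 kb, from 45432651 to 45446590. The second, of 21.2 kb, lay in the start of chromosome 1 from 31111 to 52260 with a score of 1141. The third lay in the end of chromosome 19 from 48366601 to 48382230 and the fifth in the end of chromosome 18 from 50954651 to 50967530, at 15.6 and 12.9 kb.

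A few members had extreme scores. The 10 members scoring at least 10000 held 74.1% of the summed score of all members. Of the 10, 9 lay within 100 kb of a tip, as did 953 of all 3634 members. Scores of at least 1000 changed less with distance. They made up 7.35% of members in the first 100 kb, 5.11% from 300 to 400 kb and 6.81% from 400 to 500 kb. Scores of at least 10000 were rare in both parts, at 0.275% of members and 0.180% of the 73890 peaks in the rest. The highest, 988923, lay on chromosome 22 from 39219361 to 39223550 with its summit 2245 bp from the tip, and the next 2, 828340 and 608668, on chromosome 17 from 53291781 to 53294020 and on chromosome 3 from 62288301 to 62289410, 51.2 and 83.3 kb from the tip. In starts, the highest were 279113 on chromosome 15 from 71401 to 73120, 264205 on chromosome 24 from 11 to 1270 and 168563 on chromosome 2 from 81021 to 83740. The other 4 scored 64207 on chromosome 6 from 59818591 to 59820880, the only one far from its tip at 440 kb, 51140 on chromosome 17 from 53344171 to 53345110, 11473 on chromosome 20 from 55333201 to 55339500 and 10845 on chromosome 22 from 39134911 to 39137150. The peaks of chromosomes 17 and 20 named last set the tips of those ends. Members held 11.7% of the summed score of the 24 chromosomes, and 5.35% when peaks scoring at least 10000 were left out everywhere. Reads that fit several places were each put at 1 of them at random by the authors, and the part of repeated sequence in these scores was not tested. The part of duplicate reads in them was not tested either. The density ratio moved little without such peaks, from 2.587 to 2.586.

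The 3 sites nearest to a tip lay in the ends of chromosomes 13 (51778141 to 51778820, score 524), 16 (55378321 to 55379280, score 112) and 2 (59487611 to 59488510, score 94), and each is the last peak of its chromosome, so their distances of 20, 45 and 65 bp follow from how the tip was set. In 8 starts, where position 0 set the tip, a summit lay within 1 kb of it.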

How the data were processed

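ATAC-seq was made from 2 biological replicates of 4 hpf embryos. Alignment to Zv10 was done by the authors with Novoalign (3.8, per the submitters' processing notes), and a read that fits several places went to 1 of them at random. Technical replicates were then merged (SAMtools). For peak calling the authors used the Multi-Replica Macs wrapper, with a cutoff of 2, on fragments 30 to 120 bp long, after bringing the replicates to the depth of the smaller one. The option --nodup was also set, and the methods do not say how duplicate reads were treated. The deposited list gives positions in bp and the authors' score, whose scale is not named. Its columns for enrichment, p and q hold only 0 and were not used.

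Starts are counted from 1. Distances were taken from summits. No chromosome lengths were used, so the tip of an end was set by the end of the last peak of its chromosome. Adjacent peaks were paired only within the same end or within the rest. Medians over chromosomes carry order-statistic intervals at 95%, which take the chromosomes of 1 pooled list as independent draws. No test was run, as the list is 1 pooled sample. Named places were the 5 densest and 5 sparsest ends and the 10 highest-scoring and 5 widest members. Also named were the 5 runs with members that held the most peaks, and the 3 summits nearest a tip. Other ends and gaps were named after their values were seen. The members, lists and limits were chosen with earlier results of these data known. Sequence, motif and gene comparisons were planned and not run, because no Zv10 genome was used. Scripts were tested on simulated data. Values were computed in Python 3.11.15 (scipy 1.17.1, numpy 2.4.6, pandas 2.3.3) and drawn with matplotlib 3.10.9.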

Additional observations from a re-analysis of the deposited data

How the results depend on the processing

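Of 81 alternative values, 73 stayed within the interval of the reported value, 8 did not and 0 changed direction. For the number of dense ends the limit was 1.5 times the reported count. The 73 include the density ratios with 1 of the 24 chromosomes left out, which could only take a middle value inside the interval. A change of direction was not checked for runs, dense ends and scores of neighbours. Intervals for runs and scores of neighbours took peaks or pairs as independent, which they are not. Members of 1 run count together, and consecutive pairs share a peak. Whether an alternative fell within those intervals therefore decides nothing for these 2 results. With an outer length of 250 kb the ratio was 1.30 for width, 1.22 for score and 3.95 for the covered share, and with 1 Mb it was 1.09 for width, 1.05 for score (above 1 in 15 of 24 chromosomes, with an interval of 0.953 to 1.10) and 2.18 for the covered share. The density ratio was 2.93 and 2.00 at these lengths, and 2.56 to 2.61 with each chromosome left out. The share of peaks in runs of 10 or more was 44.2% for members and 6.03% for the rest with joining within 5 kb, and 87.6% and 44.4% within 20 kb, as a longer joining distance can only add peaks to a run. Spearman's rho between scores of adjacent members was 0.116, and 0.191 for pairs under 1 kb apart. Leaving out the last peak of each chromosome, and starting the rest 1 Mb from a tip, were chosen after seeing the data, and gave density ratios of 2.57 and 2.59. Neither replicate could be left out, since both are pooled. Lengths and sequence gaps of Zv10 were not used, so that alternative was not run. Depth is unknown.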

Other observations

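Chromosome 4, whose long arm is known as a late-replicating, repeat-rich part of the zebrafish genome, showed a smaller difference at its ends. Its 74 outer peaks gave 74.0 summits per Mb against 60.9 in the rest of the chromosome, a ratio of 1.22, below the lowest of the other 24 chromosomes (1.27 on chromosome 7). Outer peaks were wider there too, at a median of 1025 against 840 bp, while their median score was lower, at 171 against 231.

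Density at a start told little about density at the end of the same chromosome, with a Spearman's rho of -0.0498 over 24 chromosomes. Outer density had a rho of -0.24 with chromosome length and 0.075 with the density of the rest. These are descriptions of 1 pooled list, whose points share depth and peak calling.

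Scores of adjacent peaks less than 1 kb apart were less alike at the ends than elsewhere, with a rho of 0.191 over 1121 pairs against 0.335 over 11607 pairs in the rest. At gaps of 1 kb or more, rho was 0.0714 and 0.0863. The difference between outer part and rest was not tested. Peaks with less than 1 kb between them formed blocks, which also depend on density. Blocks of 3 or more held 26.8% of members and 9.47% of the other peaks. The longest such block spanned 41.1 kb in the outer part and 173 kb in the rest, which has many more peaks.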
